A study of Mus musculus with 20 samples.

Results

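RNA was measured in mouse liver for 10 genes of bile acid synthesis and transport, and their levels were compared between 4 groups of vector and diet. The members were taken by their gene symbols, and all 10 were found among the 50559 genes of the count table. *Cyp7a1*, *Cyp8b1*, *Cyp27a1* and *Cyp7b1* make the bile acid nucleus and side chain, *Slc27a5* and *Baat* conjugate it, *Slc10a1* and *Slco1b2* take bile acids up from blood, and *Abcb11* and *Abcb4* supply bile. Each of them passed the filter on low counts in every comparison.

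All 20 mice carried the *Cideb* fl/fl allele, in which exon 2 can be removed by Cre. *Cideb* encodes a lipid droplet protein of hepatocytes. WT mice received AAV-TBG-GFP and KO mice received AAV-TBG-Cre, a virus in which the TBG promoter limits expression to hepatocytes, so that other liver cells keep the gene. The study's methods describe injection of young adult mice. The labels give 3 months on either Western diet (WD) or CDA-HFD, a high-fat diet that lacks choline and holds amino acids in place of protein, with 5 livers in each of the groups WT on WD, KO on WD, WT on CDA-HFD and KO on CDA-HFD. By the study's methods WD is solid food rich in sugar, fat and cholesterol, given with water that holds fructose and glucose. The methods describe CDA-HFD as deficient in methionine as well as choline. Which part of a diet lies behind a difference was not tested. The study's text gives a longer time on WD than on CDA-HFD, so diet and length of feeding cannot be told apart. The controls therefore also carried the floxed allele and a virus.

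Bile acids are made from cholesterol in hepatocytes. In the classic pathway CYP7A1 hydroxylates the sterol ring and sets the rate, and CYP8B1 adds the hydroxyl group that turns the product into cholic acid. The alternative pathway starts with hydroxylation of the side chain by CYP27A1 in mitochondria and continues with CYP7B1. Conjugated bile acids cross the canalicular membrane, return from the intestine in portal blood and are taken up again at the sinusoidal membrane, and the nuclear receptor FXR (*Nr1h4*) with its target *Nr0b2* (SHP) holds synthesis in check.

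RefSeq start sites were at hand for 6 of the 10 genes (build GRCm38.p6), namely *Cyp27a1*, *Abcb11*, *Abcb4*, *Slco1b2*, *Cyp8b1* and *Slc10a1*. The 250 bases before the start are shown for the 5 of them that differed between groups in the results that follow, read 5′ to 3′ on the strand of the gene. Capitals mark matches to 4 short motifs searched on both strands, whose letters were chosen after the sequences had been seen. The nuclear receptor half-site AGGTCA is found in 14.0% of the 32851 promoter windows of this length in the same table. The longer motif CAAAGTCCA, which HNF4A binds, is found in 0.384% of these windows. The HNF1 half-site GTTAAT is held by 6.43% of all the promoter windows searched in this way. The TATA box, searched as TATAAA, is held by 12.4%. No 2 matches overlapped in the windows shown. A match is a description of letters and not of binding.
*Cyp27a1*, chr1:74713285-74713534, plus strand: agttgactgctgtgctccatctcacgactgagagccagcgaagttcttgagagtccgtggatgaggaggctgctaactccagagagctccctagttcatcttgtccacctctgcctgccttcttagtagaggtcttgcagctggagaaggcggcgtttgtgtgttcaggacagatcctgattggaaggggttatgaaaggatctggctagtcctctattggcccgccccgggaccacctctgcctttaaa
*Abcb11*, chr2:69342617-69342866, minus strand: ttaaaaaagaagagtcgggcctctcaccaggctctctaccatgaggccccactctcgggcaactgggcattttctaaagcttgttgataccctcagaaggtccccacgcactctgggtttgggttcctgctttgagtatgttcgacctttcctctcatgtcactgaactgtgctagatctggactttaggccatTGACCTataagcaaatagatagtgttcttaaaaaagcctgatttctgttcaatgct
*Cyp8b1*, chr9:121916306-121916555, minus strand: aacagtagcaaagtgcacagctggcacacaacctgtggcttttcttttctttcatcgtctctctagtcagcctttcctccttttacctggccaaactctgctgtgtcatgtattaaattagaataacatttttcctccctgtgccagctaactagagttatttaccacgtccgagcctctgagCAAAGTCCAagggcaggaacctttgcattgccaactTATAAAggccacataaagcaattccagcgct
*Slc10a1*, chr12:80968706-80968955, minus strand: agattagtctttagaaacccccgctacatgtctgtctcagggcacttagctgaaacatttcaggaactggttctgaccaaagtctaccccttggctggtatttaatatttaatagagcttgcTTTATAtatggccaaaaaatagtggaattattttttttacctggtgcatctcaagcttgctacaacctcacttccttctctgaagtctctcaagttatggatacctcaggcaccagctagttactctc
*Slco1b2*, chr6:141629268-141629517, plus strand: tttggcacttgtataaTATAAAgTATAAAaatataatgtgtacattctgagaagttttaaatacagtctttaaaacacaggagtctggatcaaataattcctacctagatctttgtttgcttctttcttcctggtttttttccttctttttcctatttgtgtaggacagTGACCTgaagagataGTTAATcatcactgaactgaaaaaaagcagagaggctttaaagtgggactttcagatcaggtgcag

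The capitals in *Abcb11* mark a nuclear receptor half-site on the opposite strand, from 56 to 51 bases before the start. *Cyp8b1* held the HNF4A motif from 67 to 59 bases before the start and a TATA box from 31 to 26 bases before it. *Slco1b2* held the HNF1 half-site from 66 to 61 bases before the start, a nuclear receptor half-site and 2 TATA boxes. *Slc10a1* held a TATA box on the opposite strand. The window of another RefSeq start of *Slc10a1*, 626 bases downstream and not shown, held a nuclear receptor half-site from 87 to 82 bases before that start and no TATA box. None of the 4 motifs was found in the window of *Cyp27a1*.

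Reads counted on genes numbered 11697049 to 16827147 per liver, with a median of 14016976, and the groups compared did not differ detectably in this depth (exact two-sided permutation tests, p from 0.373 to 0.992). Values per liver are CPM, the reads of a gene relative to all reads on genes, on 1 TMM scale over the 20 livers. On WD, *Cideb* averaged 6.05 ± 1.12 CPM with the GFP virus and 0.155 ± 0.165 CPM with the Cre virus, and on CDA-HFD 3.05 ± 0.652 and 0.163 ± 0.154 CPM (SD, n = 5 each). Its exons overlap those of *Nop9* on the other strand, so these counts are uncertain. KO liver 5 on CDA-HFD had a *Cideb* level of 0.0598 CPM, but its bile acid genes and cell type markers lay apart from those of the other 4 KO livers on that diet, as given with the results it touches. Nothing in the labels says that the livers of a group came from separate cages or litters, and p-values measure the spread between these livers.

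Levels of the genes can be compared with each other only per exon length, as RPKM, which divides CPM by the exonic length in kilobases. This length joins the exons of all annotated transcripts, such as 9383 bases over 5 transcripts of *Abcb4* and 1950 over 1 of *Cyp8b1*. The order of the genes therefore depends on that annotation. In WT livers on WD *Slc27a5* stood highest at 322 ± 67.6 RPKM and *Slco1b2* next at 294 ± 51.8 RPKM (SD, n = 5), with overlapping ranges. *Cyp27a1* (182 ± 33.7 RPKM) and *Slc10a1* (175 ± 58.5 RPKM) followed and overlapped each other. *Abcb11*, *Cyp8b1* and *Baat* lay within each other's spread, from 102 to 109 RPKM on average. *Abcb4* was at 49.4 ± 4.34 RPKM, *Cyp7a1* at 41.4 ± 26.4 RPKM and *Cyp7b1* at 19.5 ± 3.85 RPKM. The 4 hydroxylases thus covered a wide span, with the enzyme of the alternative pathway, *Cyp7b1*, lowest of the 10 in all 4 groups. In WT livers on CDA-HFD *Cyp7a1* ranked 4 of 10 at 70.0 ± 45.6 RPKM (SD, n = 5), in the range of *Baat*, *Abcb11* and *Slc10a1*.

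**Figure D1:**
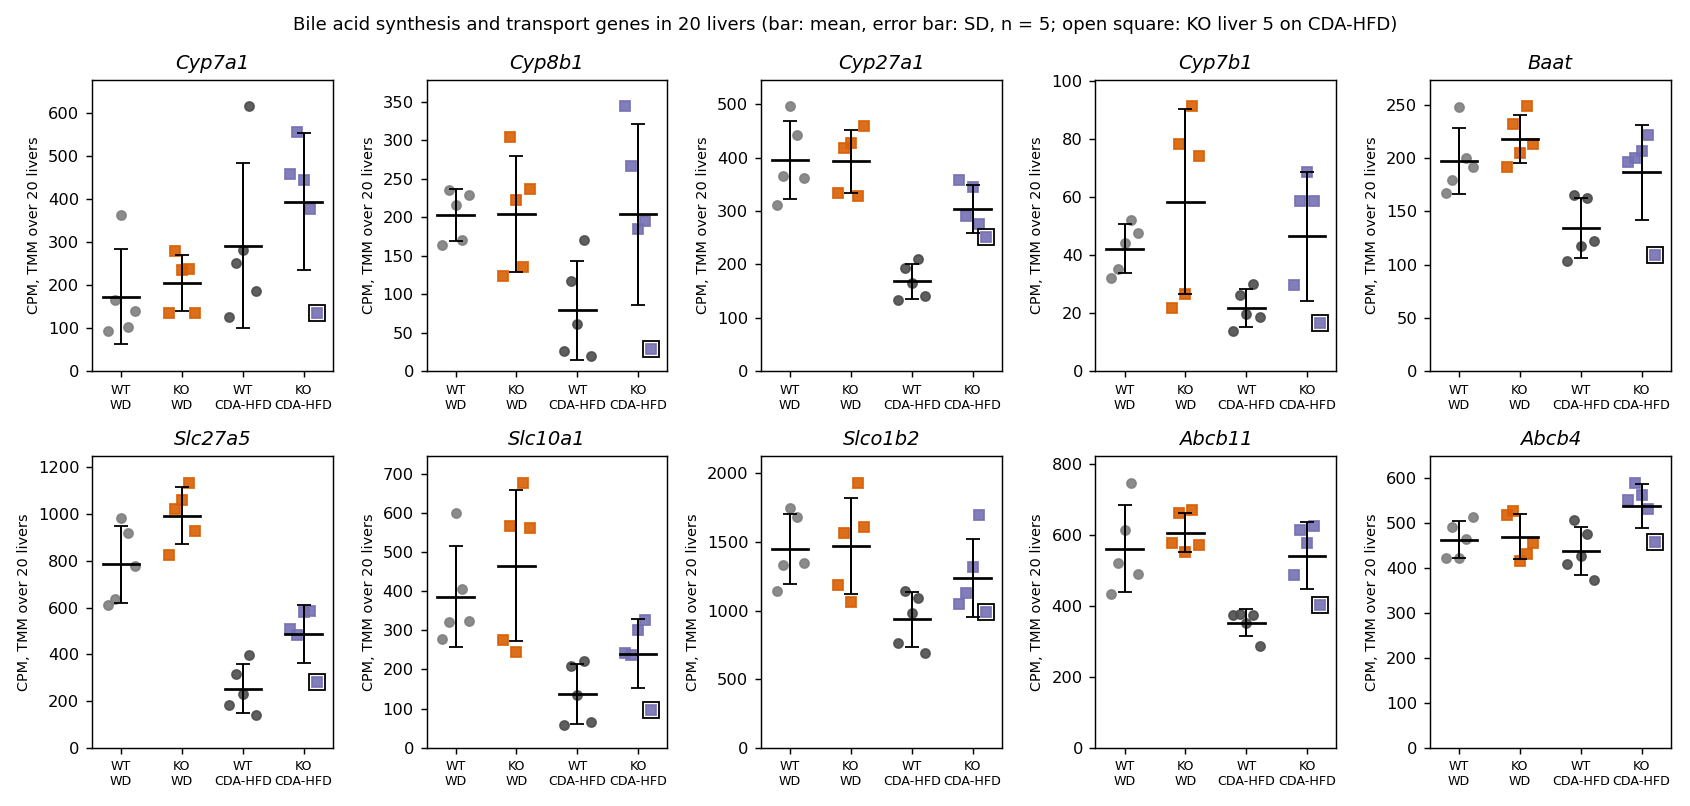
TMM-normalized CPM (y axis, from 0) of the 10 genes in each of the 20 livers by group, with the mean (bar) and SD (error bar) of 5 livers. On CDA-HFD the WT livers of *Cyp27a1* lie between 133 and 209.6 CPM and the KO livers between 252 and 358 CPM, and KO liver 5 (open square) is the lowest KO liver in every panel.

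On CDA-HFD, the first question was which steps differ when hepatocytes lack *Cideb*. *Cyp27a1*, the side chain hydroxylase, and *Abcb11*, the bile salt export pump, were higher in KO than in WT livers. These were the 2 of 10 genes that passed an adjusted p of 0.05 (edgeR, Benjamini-Hochberg over 17204 genes), where 8.19% of all genes tested were higher and 7.29% lower. The fitted log2 fold change was positive for all 10 genes, from 0.29 to 1.36, with a median of 0.70 against 0.00 for all genes tested. The KO and WT livers did not overlap for the same 2 genes, as for 9.57% of all genes tested. In bulk liver RNA, fewer hepatocytes and less RNA per hepatocyte cannot be told apart.

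*Cyp27a1* (ENSMUSG00000026170.6, GRCm38 chr1:74713574-74737892, plus strand) was at 133, 193, 165, 209.6 and 142 CPM in WT livers 1 to 5 on CDA-HFD. In KO livers 1 to 5 it was at 358, 290.5, 344, 275 and 252 CPM. Every KO liver was above every WT liver. The log2 fold change was 0.84 (standard error 0.155, 95% interval 0.50 to 1.19, edgeR adjusted p = 0.0124), or 1.80-fold, and the exact two-sided permutation p was 0.00794, the smallest that 5 livers against 5 allow. It passed in each of the 10 fits that left out 1 liver.

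*Abcb11* (ENSMUSG00000027048.15, chr2:69238282-69342616, minus strand) was at 374, 379, 353, 376 and 286 CPM in WT livers 1 to 5. In the KO livers it was at 487, 614, 578, 627 and 403 CPM, again without overlap. Its log2 fold change was 0.61 (standard error 0.143, 95% interval 0.30 to 0.93, edgeR adjusted p = 0.0218), or 1.53-fold, with an exact permutation p of 0.00794. The call was lost, with adjusted p from 0.0505 to 0.0614 (edgeR), when WT liver 3 or 5 or KO liver 1, 2 or 3 was left out, while the log2 fold change stayed between 0.54 and 0.70. Exons of the predicted genes *Gm13613* and *Gm13614* overlap its exons on the opposite strand. The other canalicular gene, *Abcb4* (ENSMUSG00000042476.12, chr5:8893717-8959231, plus strand), encodes the transporter that moves phosphatidylcholine into bile. It ranged from 373 to 507 CPM in the WT livers and from 458 to 590.3 CPM in the KO livers, and its log2 fold change was 0.29 (95% interval 0.03 to 0.55, edgeR adjusted p = 0.1095).

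The 2 amidation genes had positive log2 fold changes that missed the threshold. *Slc27a5* (ENSMUSG00000030382.15, chr7:12988346-12998192, minus strand), the ligase that joins bile acids to coenzyme A, was at 183, 317, 229, 399 and 139.7 CPM in WT livers 1 to 5. In KO livers 1 to 5 it was at 506, 484, 581, 587 and 281 CPM, so that 4 KO livers stood above every WT liver and KO liver 5 stood among them. Its log2 fold change was 0.94 (95% interval 0.30 to 1.57) with an adjusted p of 0.0503 (edgeR). It passed (adjusted p from 0.0102 to 0.0486) with RLE size factors, without a filter on low counts, with at least 10 counts in every liver, with DESeq2, with a replicate block and with 20 livers in 1 fit. It did not pass by library size only, and with 1 liver left out it passed in 2 of 10 fits. *Baat* (ENSMUSG00000039653.9, chr4:49489422-49506557, minus strand), which transfers taurine or glycine to the product of *Slc27a5*, ranged from 103 to 166 CPM in WT livers. In KO livers 1 to 4 it ranged from 197 to 222 CPM and in KO liver 5 it was at 109 CPM, with a log2 fold change of 0.47 (edgeR adjusted p = 0.121).

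Among the hydroxylases, *Cyp7b1* (ENSMUSG00000039519.6, chr3:18071950-18243338, minus strand) was at 13.8, 26.5, 19.8, 30.2 and 18.8 CPM in WT livers 1 to 5 and at 29.8, 58.7, 68.7, 58.8 and 16.5 CPM in KO livers 1 to 5. Its log2 fold change of 1.09 (95% interval 0.30 to 1.87, edgeR adjusted p = 0.0596) did not pass. *Cyp8b1* (ENSMUSG00000050445.4, chr9:121914356-121916305, minus strand, a single exon) was at 26.5, 118, 61.3, 170.1 and 19.9 CPM in the WT livers and at 344, 268, 185, 195 and 28.5 CPM in KO livers. Of the 10 genes it varied most between the livers of a group on this diet, with a coefficient of variation of 80.9% in WT livers, and its log2 fold change of 1.36 had a standard error of 0.671 (edgeR adjusted p = 0.170). *Cyp7a1* (ENSMUSG00000028240.2, chr4:6265612-6275633, minus strand) was at 127, 251, 281, 615 and 186 CPM in WT livers 1 to 5 and at 459, 556, 444, 377 and 136 CPM in KO livers 1 to 5. The groups overlapped throughout, since WT liver 4 was the highest of the 10 livers and KO liver 5 the second lowest. The log2 fold change of *Cyp7a1* was 0.43 with a 95% interval from -0.53 to 1.39 (edgeR adjusted p = 0.508).

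Neither uptake carrier passed. *Slc10a1* (ENSMUSG00000021135.8, chr12:80953183-80968705, minus strand), the sodium-dependent carrier for conjugated bile acids, was at 57.2, 209.9, 134, 221 and 66.0 CPM in WT livers 1 to 5. In KO livers 1 to 5 it was at 243, 238, 302, 325 and 95.7 CPM. KO livers 1 to 4 were above every WT liver and KO liver 5 was not, and the log2 fold change was 0.80 (95% interval -0.13 to 1.73, edgeR adjusted p = 0.198). *Slco1b2* (ENSMUSG00000030236.10, chr6:141629518-141686646, plus strand), a sodium-independent carrier, ranged from 689 to 1145 CPM in the WT livers and from 993 to 1699 CPM in the KO livers, and its log2 fold change was 0.40 (95% interval -0.04 to 0.83, edgeR adjusted p = 0.173).

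**Figure D2:**
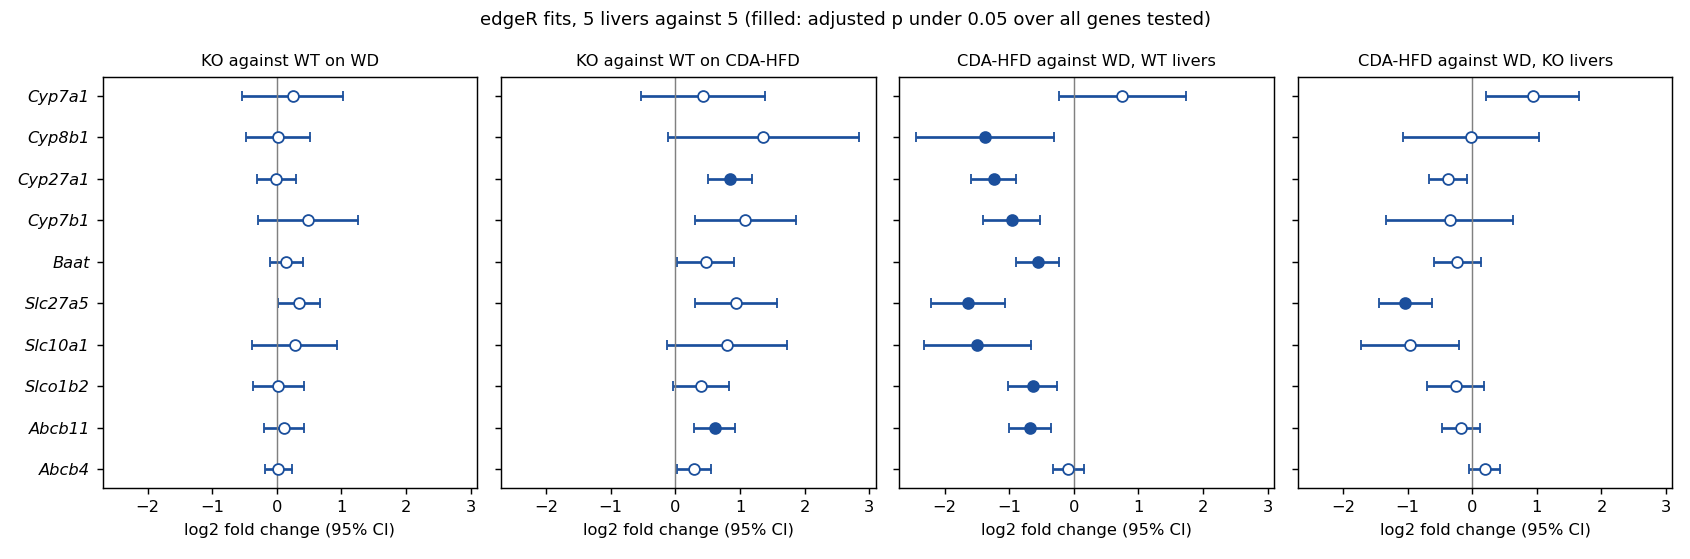
Fitted log2 fold change (x axis) with its 95% interval for the 10 genes in the 4 comparisons of 5 livers against 5, filled where the adjusted p from edgeR was under 0.05. Filled points are 0 of 10 on WD, 2 of 10 on CDA-HFD, 8 of 10 for diet in WT livers and 1 of 10 for diet in KO livers.

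KO liver 5 on CDA-HFD was the lowest of the 5 KO livers for 10 of the 10 genes, and for 8 of them it fell between the lowest and the highest WT liver. *Cyp27a1* (252 CPM) and *Abcb11* (403 CPM) were the 2 genes for which it stayed above every WT liver. Without this liver, 8 of the 10 genes passed the threshold (edgeR), all higher in KO livers, and 7201 of 17411 genes passed over the whole table against 2664 of 17204 with it. The genes added were *Slc27a5* (log2 fold change 1.08), *Cyp7b1* (1.30), *Cyp8b1* (1.64), *Slc10a1* (1.00), *Baat* (0.61) and *Abcb4* (0.35), while *Cyp7a1* and *Slco1b2* stayed past 0.05. The labels give no reason to leave this liver out, and the values with all 10 livers are the ones reported. Without WT liver 3 or 5, or without KO liver 1, 2 or 3, 1 gene passed, which was *Cyp27a1*. The number passing among all genes tested also fell in these fits. It was 789, 913, 709, 986 and 736, in this order, against 2664 with all 10 livers.

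**Figure D3:**
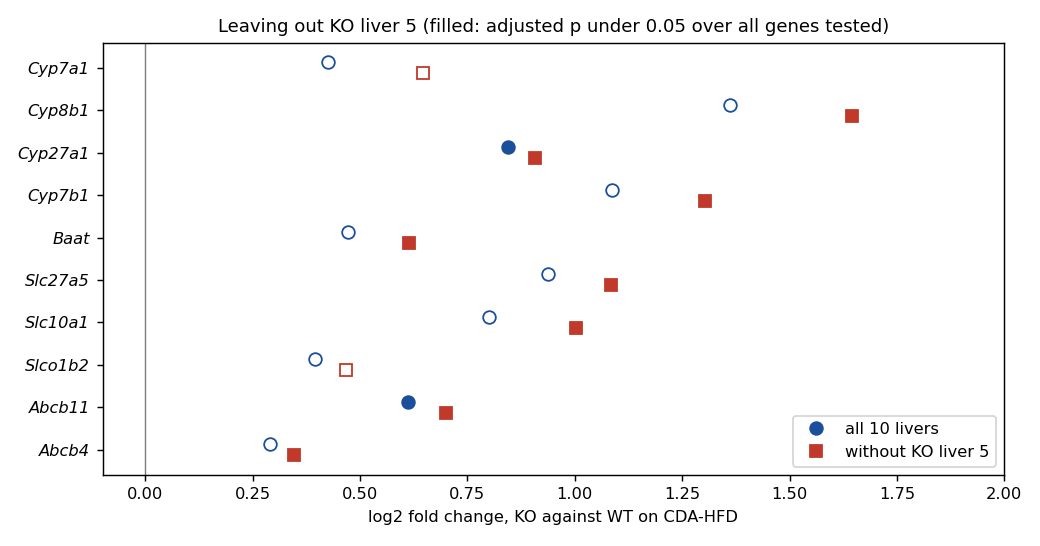
Log2 fold change of KO against WT livers on CDA-HFD (x axis) for the 10 genes with all 10 livers (circles) and without KO liver 5 (squares), filled where the adjusted p from edgeR was under 0.05. Every square lies to the right of its circle, and the filled symbols go from 2 to 8.

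Summed cell type markers also differed between these livers. The summed level of 9 hepatocyte markers, all found in every group (1 more listed marker was not analysed here), had a median of 48767 CPM in WT livers on CDA-HFD (36041 to 75353) and of 79751 CPM in KO livers (36593 to 104121). *Alb* made up most of this sum, averaging 37066 CPM with the GFP virus and 58085 CPM with the Cre virus on this diet. The contrast of the sums is therefore mostly that of *Alb*. The fitted log2 fold change was positive for 8 of 9 markers, with a median of 0.45. *Hpx* went the other way, from a mean of 4168 to 3379 CPM. Within the KO livers, liver 5 had the lowest sum. Of the hepatocyte markers tested, 1 of 9 was higher in KO livers and 0 were lower. Summed macrophage markers (10 genes) ran from 1755 to 3638 CPM in WT livers and from 625 to 829 CPM in KO livers 1 to 4, with 2051 CPM in KO liver 5. Stellate cell markers (10 genes) ran from 2017 to 3360 CPM in WT livers and from 1027 to 1267 CPM in KO livers 1 to 4, with 3520 CPM in KO liver 5. Cholangiocyte markers (8 genes) ran from 382 to 815 CPM in WT livers and from 84.9 to 191 CPM in KO livers 1 to 4, with 671 CPM in KO liver 5. *Spp1* made up most of the cholangiocyte sum, averaging 515 CPM with the GFP virus and 189 CPM with the Cre virus on this diet. The other cholangiocyte markers averaged at most 21.9 CPM (*Sox9*) with the GFP virus. The fitted log2 fold change was positive for 0 of 8 cholangiocyte markers, with a median of -0.73. Of the markers in these lists, 4 of 10 for macrophages, 3 of 10 for stellate cells and 0 of 8 for cholangiocytes were lower in KO livers. Among all genes tested, 7.29% were lower and 8.19% higher. Endothelial markers (8 genes) had a median of 689 CPM in the WT livers and of 914 CPM in the KO livers. The lymphocyte markers (10 genes), of which 1 was at 0 in all livers, summed to at most 30.9 CPM. The part of the cell types in the levels of the bile acid genes was not tested by these sums.

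**Figure D4:**
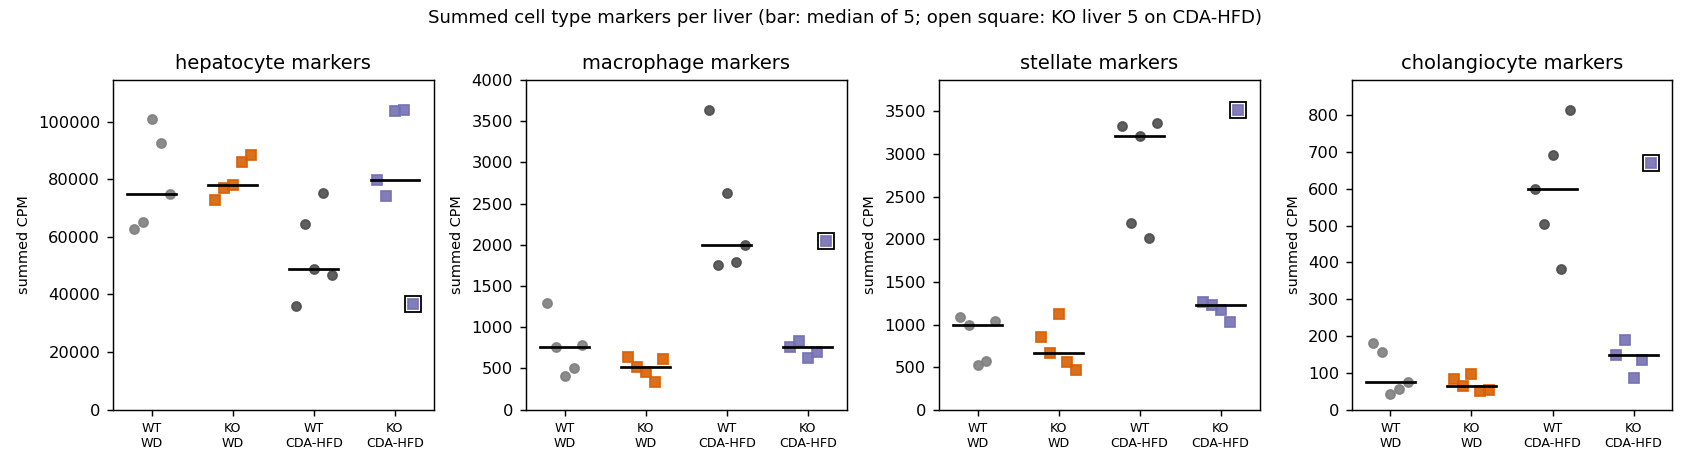
Summed CPM (y axis, from 0) of hepatocyte, macrophage, stellate cell and cholangiocyte markers in each of the 20 livers, with the median of each group (bar). KO liver 5 on CDA-HFD (open square) is at 36593 CPM for hepatocyte markers and at 3520 CPM for stellate cell markers, among or beyond the WT livers on that diet.

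Each gene was also expressed relative to the mean log2 CPM of the 9 hepatocyte markers in the same liver, a step added after the data had been seen. On this scale the KO minus WT difference on CDA-HFD was 0.58 for *Slc27a5* against 1.00 without it, with no overlap between the groups (exact two-sided permutation p = 0.00794). It was 0.44 for *Cyp27a1* against 0.86 (exact permutation p = 0.0317, groups overlapping). The share of all genes without overlap was not computed on this scale. Without the scaling it was 9.57%. *Abcb11* moved from 0.60 to 0.18 (exact permutation p = 0.389), *Baat* from 0.46 to 0.04 and *Slco1b2* from 0.40 to -0.02. *Abcb4*, at -0.12, also changed sign. *Cyp8b1* at 1.01, *Cyp7b1* at 0.54, *Slc10a1* at 0.48 and *Cyp7a1* at 0.08 remained positive, with exact permutation p from 0.103 to 0.786.

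On WD, none of the 10 genes passed (edgeR, 15848 genes tested, of which 0.0126% were higher and 0.0631% lower). At an unadjusted p under 0.05 the number was 1, beside 1702 of the 15848 genes tested. At an adjusted p under 0.05 by DESeq2 it was 0, beside 164 of these genes. The median log2 fold change of the 10 genes was 0.13 against 0.01 for all genes tested, with 9 of 10 positive, and the groups overlapped for each of the 10 genes where 2.22% of all genes tested did not overlap. The gene behind the unadjusted call was *Slc27a5*, at 612, 639, 983, 918 and 777 CPM in WT livers 1 to 5 and at 823, 1022, 1061, 1135 and 929 CPM in KO livers 1 to 5. Its log2 fold change was 0.34 (95% interval 0.02 to 0.67, edgeR adjusted p = 0.448, exact permutation p = 0.0635).

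*Cyp27a1* had a log2 fold change of -0.01 on WD, with a 95% interval from -0.31 to 0.30. The mean was 395 ± 73.3 CPM for the WT group and 393 ± 59.3 CPM for the KO group (SD, n = 5). *Abcb11* was at 562 ± 123 and 607 ± 55.7 CPM (SD, n = 5), with a 95% interval of the log2 fold change from -0.19 to 0.42. A difference of the size fitted on CDA-HFD therefore lay outside the interval on WD for both genes, although the difference between diets is tested only by the interaction. *Cyp7b1* was uneven within the KO livers on WD, at 21.9, 78.2, 26.6, 91.3 and 74.4 CPM in livers 1 to 5, while the WT livers lay between 32.2 and 52.0 CPM. *Slc10a1* was uneven in the same livers, at 274, 567, 245, 678 and 562 CPM, with KO livers 1 and 3 lowest for both genes. The log2 fold change on WD was 0.48 for *Cyp7b1*, 0.28 for *Slc10a1*, 0.25 for *Cyp7a1*, 0.15 for *Baat*, 0.024 for *Slco1b2*, 0.023 for *Abcb4* and 0.014 for *Cyp8b1* (edgeR, adjusted p from 0.652 to 0.993).

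The KO effect was next compared between the diets by the interaction of vector and diet over the 20 livers. None of the 10 genes passed (edgeR, 17804 genes tested, of which 0.331% were positive calls and 0.225% negative ones). At an unadjusted p under 0.05 the number was 2, beside 2736 of the 17804 genes tested. At an adjusted p under 0.05 by DESeq2 it was 1, *Cyp27a1* (DESeq2 adjusted p = 0.0118), beside 434 of these genes. The interaction log2 fold change of *Cyp27a1* was 0.86 (standard error 0.214, 95% interval 0.41 to 1.31, edgeR adjusted p = 0.0726). For *Abcb11* it was 0.50 (95% interval 0.08 to 0.93, edgeR adjusted p = 0.255). The interaction was 1.36 for *Cyp8b1*, 0.62 for *Cyp7b1*, 0.60 for *Slc27a5*, 0.54 for *Slc10a1*, 0.38 for *Slco1b2*, 0.33 for *Baat*, 0.28 for *Abcb4* and 0.19 for *Cyp7a1* (edgeR, adjusted p from 0.377 to 0.912). All 10 estimates were positive, with a median of 0.52 against 0.02 for all genes tested. Without KO liver 5 on CDA-HFD, *Cyp27a1* (edgeR adjusted p = 0.0114) and *Abcb11* (edgeR adjusted p = 0.0475) passed, while the genes that passed over the whole table went from 99 of 17804 to 2138 of 17995.

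CDA-HFD was then compared with WD in WT livers. *Slc27a5*, *Slc10a1*, *Cyp8b1*, *Cyp27a1*, *Cyp7b1*, *Abcb11*, *Slco1b2* and *Baat* were lower on CDA-HFD, 8 of 10 genes, where 25.2% of all genes tested were lower and 25.9% higher (edgeR, 16726 genes). Synthesis, amidation, uptake and export of bile salts were each represented among them, and *Cyp7a1* and *Abcb4* were the 2 genes that did not pass. The median log2 fold change of the 10 genes was -0.82 against 0.00 for all genes tested. The groups did not overlap for 6 of the 10 genes, as for 37.1% of all genes tested. The same 5 WT livers on CDA-HFD entered this comparison and that of KO with WT livers, so their values are given side by side and not as separate evidence.

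*Slc27a5* fell from 786 ± 165 CPM on WD to 253 ± 104 CPM on CDA-HFD (SD, n = 5), with a log2 fold change of -1.64 (standard error 0.265, edgeR adjusted p = 0.000391). *Slc10a1* was at 278, 321, 600.2, 407 and 323 CPM in WT livers 1 to 5 on WD, all above the CDA-HFD values given before. Its log2 fold change was -1.49 (standard error 0.377, edgeR adjusted p = 0.00610). *Cyp27a1* was at 311, 366, 496, 443 and 361 CPM on WD, and its log2 fold change of -1.24 had a standard error of 0.159 (edgeR adjusted p = 9.52e-05). Both hydroxylases that act downstream of the first step were lower too. *Cyp8b1* was at 165, 236, 216, 171 and 229.7 CPM on WD and overlapped CDA-HFD by 1 liver, with a log2 fold change of -1.37 (edgeR adjusted p = 0.0344). Its call was lost (adjusted p from 0.0548 to 0.0767, edgeR) without WT liver 2, 3 or 5 on WD or WT liver 1 or 3 on CDA-HFD. *Cyp7b1* fell by 0.96 on the log2 scale (edgeR adjusted p = 0.00204).

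The remaining 3 of the 8 fell less. The log2 fold change was -0.68 for *Abcb11* (edgeR adjusted p = 0.00265), -0.64 for *Slco1b2* (edgeR adjusted p = 0.00966) and -0.56 for *Baat* (edgeR adjusted p = 0.00870). *Abcb4* did not pass, going from 463 ± 40.7 to 439 ± 53.1 CPM (SD, n = 5), with a 95% interval of the log2 fold change from -0.33 to 0.15. *Cyp7a1* had the opposite sign without passing, with 92.8, 165, 364, 103 and 140.4 CPM in WT livers 1 to 5 on WD against 127 to 615 CPM on CDA-HFD. WT liver 3 on WD stood apart from the other 4, and the log2 fold change was 0.75 (95% interval -0.22 to 1.73, edgeR adjusted p = 0.180). Without that liver it was 1.21 (edgeR adjusted p = 0.0283). Scaling by library size alone raised the median of all genes by 0.42 in this comparison, and then *Cyp7a1* and *Abcb4* passed as higher, *Abcb4* with a changed sign, and 4 genes as lower.

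Summed hepatocyte markers had a median of 74722 CPM in WT livers on WD (62778 to 100798) and 5 of 9 were lower and 1 higher on CDA-HFD. Stellate cell markers were higher for 9 of 10, cholangiocyte markers for 8 of 8 and macrophage markers for 5 of 10, with 1 of 10 lower. Of all genes tested in this comparison, 25.9% were higher and 25.2% lower. Relative to the hepatocyte markers of the same liver, *Slc27a5* (-1.20), *Slc10a1* (-1.14), *Cyp27a1* (-0.73) and *Cyp7b1* (-0.47) were lower on CDA-HFD in every liver than in any liver on WD (exact two-sided permutation p = 0.00794 for each). The share of all genes without overlap was not computed on this scale. Without the scaling it was 37.1%. *Cyp8b1* was at -1.29 on that scale (exact permutation p = 0.0159). *Baat* at -0.06, *Slco1b2* at -0.14 and *Abcb11* at -0.14 had exact permutation p from 0.294 to 0.460. *Cyp7a1* was at 1.24 (exact permutation p = 0.0317) and *Abcb4* at 0.42 (exact permutation p = 0.0397), both higher relative to these markers.

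In KO livers the same diets differed for 1 of 10 genes, *Slc27a5*, which was lower on CDA-HFD (7.85% of 16387 genes tested were lower and 9.19% higher, edgeR). It went from 994 ± 121 to 488 ± 124 CPM (SD, n = 5) without overlap, with a fitted log2 fold change of -1.04 (standard error 0.188, edgeR adjusted p = 0.00488). The median over the 10 genes was -0.24 against 0.00 for all genes tested. *Slc10a1* had a log2 fold change of -0.96 (edgeR adjusted p = 0.0777). It passed without KO liver 3 on WD, the liver with the most unaligned reads (edgeR adjusted p = 0.0494). *Cyp27a1* had one of -0.38 (edgeR adjusted p = 0.0785). *Cyp7a1*, at 135, 279, 236, 238 and 136 CPM in KO livers 1 to 5 on WD, had a log2 fold change of 0.93 (95% interval 0.21 to 1.66, edgeR adjusted p = 0.0722), which became 1.15 (edgeR adjusted p = 0.00514) without KO liver 5 on CDA-HFD. *Cyp8b1* was at 205 ± 75.4 CPM on WD and 204 ± 117 CPM on CDA-HFD (SD, n = 5), with a log2 fold change of -0.02. The other genes had values of -0.35 for *Cyp7b1*, -0.26 for *Slco1b2*, -0.23 for *Baat*, -0.17 for *Abcb11* and 0.19 for *Abcb4* (edgeR, adjusted p from 0.252 to 0.635). That a gene passed in WT and not in KO livers was not itself a test, which is the interaction given before.

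Ratios of raw counts within 1 liver need no scaling and are given as a description. The ratio of *Cyp8b1* to *Cyp7a1*, the enzyme for cholic acid against the first enzyme, had a median of 1.64 (0.593 to 1.77) in the WT livers fed WD. It was 0.944 in KO livers on WD (0.570 to 1.75), 0.218 in WT livers on CDA-HFD (0.107 to 0.470) and 0.481 in KO livers on CDA-HFD (0.210 to 0.751). In WT livers the ranges of the 2 diets did not overlap, and in KO livers they did. The ratio of *Cyp7b1* to *Cyp7a1*, alternative against classic pathway, had medians of 0.340 and 0.280 in WT and KO livers on WD and of 0.101 and 0.122 on CDA-HFD. Its ranges on CDA-HFD were 0.0490 to 0.109 in WT and 0.0649 to 0.156 in KO livers. The ratio of *Slc10a1* to *Slco1b2* ran from 0.240 to 0.343 in WT livers fed WD and from 0.0746 to 0.202 in those fed CDA-HFD. In each of these ratios the WT and KO livers of 1 diet overlapped.

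The rest of the pathway was described from lists compiled with earlier results of these data known. In KO against WT livers on CDA-HFD, where 8.19% of all genes tested were higher and 7.29% lower, 5 of 15 further synthesis genes were higher and 1 lower, with a median log2 fold change of 0.59. The higher genes with the smallest adjusted p were *Acot8* (0.74, edgeR adjusted p = 0.00955), a peroxisomal thioesterase, *Por* (0.89, edgeR adjusted p = 0.0171), which passes electrons to the cytochrome P450 enzymes, and *Hsd17b4* (0.70, edgeR adjusted p = 0.0241), a peroxisomal enzyme of side chain shortening. The gene that was lower was *Ch25h*, which makes an oxysterol and is known from macrophages, at a log2 fold change of -2.62 (edgeR adjusted p = 0.00519) from a mean of 0.999 CPM in WT livers. *Stard1* was not analysed here.

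Of 8 other sinusoidal carriers and associated genes, 6 could be tested on CDA-HFD, with 3 higher and 0 lower in KO livers. *Slco2b1*, an organic anion carrier, went from a mean of 102 to 195 CPM (log2 fold change 0.93, edgeR adjusted p = 0.0121). *Abcc3*, which exports conjugates to blood, went from 301 to 454 CPM (0.59, edgeR adjusted p = 0.0213), and *Ephx1* had a log2 fold change of 0.53 (edgeR adjusted p = 0.0398). *Slco2b1* (1.02, edgeR adjusted p = 0.0199) and *Abcc3* (0.70, edgeR adjusted p = 0.0475) also passed the interaction, so that their KO effect differed between the diets. Of 7 other canalicular genes, 2 were higher and 0 lower, *Abcg8* (0.92, edgeR adjusted p = 0.0147) and *Abcg5* (0.80, edgeR adjusted p = 0.0287), the 2 parts of the sterol exporter. The median log2 fold changes were 0.56 for the sinusoidal and 0.19 for the canalicular list.

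Against the same 8.19% and 7.29% of all genes, 8 of 17 regulators tested on CDA-HFD were higher in KO livers and 0 lower, with a median log2 fold change of 0.61. *Foxa2*, a hepatocyte transcription factor, rose most, from a mean of 10.6 to 32.4 CPM (log2 fold change 1.61, edgeR adjusted p = 0.00733). *Hnf4a*, whose factor activates *Cyp8b1* and *Cyp7a1*, went from 436 to 785 CPM (0.84, edgeR adjusted p = 0.0154). *Nr1i2* (0.61, edgeR adjusted p = 0.0142), *Mafg* (0.57, edgeR adjusted p = 0.0157) and *Fgfr4* (0.56, edgeR adjusted p = 0.0470) also rose. These 3 genes encode, in this order, the xenobiotic receptor PXR, a repressor of bile acid synthesis genes and the receptor for the intestinal hormone that represses *Cyp7a1*. The FXR gene *Nr1h4* had a log2 fold change of 0.68 (edgeR adjusted p = 0.0604) and its target *Nr0b2* one of 0.65 (standard error 0.474, edgeR adjusted p = 0.341). *Nr5a2* (0.39), *Klb* (0.46) and *Ppara* (0.56) did not pass, with adjusted p from 0.0647 to 0.247 (edgeR). On WD, 0 of 14 synthesis genes, 0 of 6 sinusoidal, 0 of 7 canalicular genes and 0 of 17 regulators passed (edgeR). At an unadjusted p under 0.05 there were 2, 0, 0 and 3 genes, beside 1702 of the 15848 genes tested (edgeR).

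**Figure D5:**
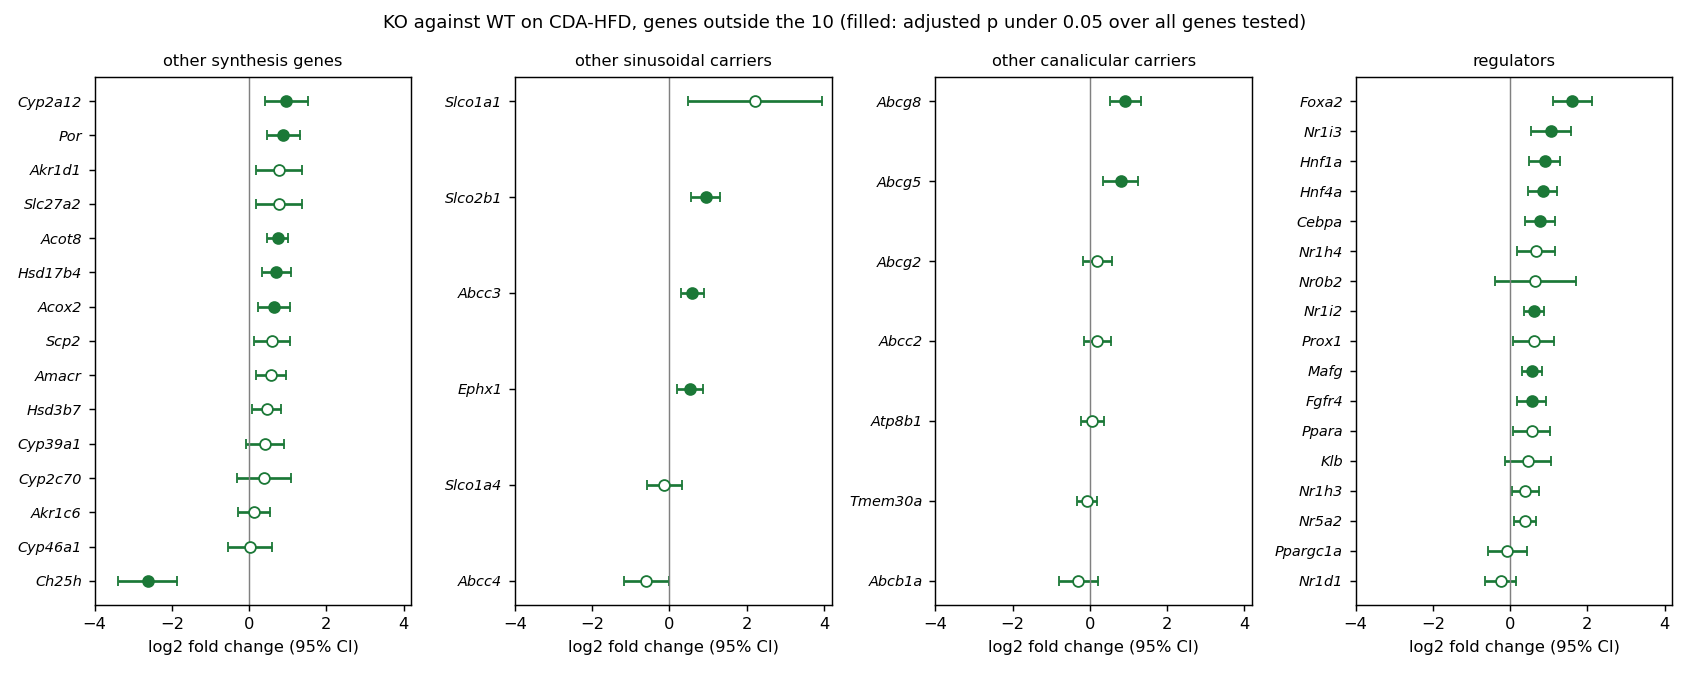
Log2 fold change (x axis) with its 95% interval of KO against WT livers on CDA-HFD for further synthesis genes, sinusoidal carriers, canalicular carriers and regulators, filled where the adjusted p from edgeR was under 0.05. The filled points are 6 of 15, 3 of 6, 2 of 7 and 8 of 17, and *Ch25h* at -2.62 is the 1 filled point below 0.

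Between the diets in WT livers, 11 of 15 synthesis genes were lower on CDA-HFD and 1 was higher. Of the sinusoidal list 4 of 6 were lower and 1 higher, of the canalicular list 5 of 7 and 1, and of the regulators 13 of 17 and 0, beside 25.2% of all genes tested that were lower and 25.9% that were higher. *Abcg5* fell by 2.45 and *Abcg8* by 2.22 on the log2 scale, *Ppara* by 1.48, *Klb* by 1.14, *Nr0b2* by 1.05, *Hnf4a* by 0.72, *Nr1h4* by 0.65 and *Nr5a2* by 0.42 (adjusted p from 2.98e-05 to 0.0117, edgeR). *Fgfr4* had a log2 fold change of -0.16 (edgeR adjusted p = 0.408). In KO livers 6 of 14, 1 of 6, 3 of 7 and 4 of 17 genes of these lists were lower on CDA-HFD, and 1, 0, 0 and 0 were higher, beside 7.85% of all genes lower and 9.19% higher.

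The genes most like 3 of the members over the 20 livers were sought among 11836 genes, as the smallest root mean square difference of centred log2 CPM. For *Slc10a1*, whose own spread was 0.96, they were *Car3* (0.23), *Aadat* (0.27) and *Serpina1d* (0.29), and the nearest of the 10 genes was *Slc27a5* (0.38). For *Cyp7b1*, with a spread of 0.78, they were *0610031O16Rik* (0.34), *Gm41668* (0.37) and *Hsd3b2* (0.37), and the nearest member was *Slc10a1* (0.50). For *Cyp7a1*, with a spread of 0.81, *Slco2a1* and *Gcnt4* were at 0.51, *Foxa3* at 0.52 and its nearest member, *Abcb4*, at 0.74, so that even the nearest genes were farther from it than those of the other 2. These 20 livers share diets and groups, and the likeness is a description.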

How the data were processed

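Liver RNA from 20 mice in 4 groups of 5 was sequenced, and the groups follow the virus and diet that the labels give. The authors deposited 1 table of raw read counts per gene, made by them on build mm10 as the submitters' processing notes state, and the aligner and counter are not given in the sources used here. The labels and the study's methods name different library kits, so whether strand was used in counting is not known. The 5 entries not assigned to a gene were left out. Each comparison was tested with edgeR 4.0.16 (filterByExpr, TMM, quasi-likelihood, in R 4.3.3), with Benjamini-Hochberg adjustment over all genes tested, a threshold of 0.05, and only the groups compared in the fit. Exact permutation tests on CPM used all 252 splits of 5 livers against 5. The models were tested on simulated data. Exonic lengths and positions came from GENCODE M21 (GRCm38), promoters from RefSeq (GRCm38.p6).

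All 10 members are named in every comparison. Of the further lists, up to 4 genes with the smallest adjusted p in KO against WT livers on CDA-HFD are named, plus 7 regulators fixed by name. The members and lists were chosen with earlier results of these data known. Alternatives were RLE factors or library size in place of TMM, DESeq2 1.42.0, no filter or at least 10 counts in every liver, all 20 livers in 1 fit, the replicate number as a block, and each liver left out. Values relative to the hepatocyte markers were added after seeing the data. No 2 livers of a group were copies of each other, with a chi-square per gene of 6.94 to 124 over 40 pairs.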

Additional observations from a re-analysis of the deposited data

Results flagged for a closer look

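In 3 of the 40 combinations of gene and group, 1 of 5 livers lay far from the rest, by the gap to its nearest neighbour as a share of the range over the group. Chance gives about 5% of such combinations, or 2 of 40. *Cyp7a1* in WT liver 3 on WD was at 364 CPM against 92.8 to 165 CPM in the other 4 livers, a gap of 0.735 of the range. Without it the log2 fold change between diets in WT livers went from 0.75 to 1.21 and passed the threshold (edgeR adjusted p = 0.0283). *Baat* in KO liver 5 on CDA-HFD was at 109 CPM against 197 to 222 CPM, a gap of 0.776 of the range, and without that liver the log2 fold change between KO and WT livers was 0.61 (edgeR adjusted p = 0.00586). *Abcb11* in WT liver 5 on CDA-HFD was at 286 CPM against 353 to 379 CPM, a gap of 0.726 of the range. Leaving it out lowered the log2 fold change between KO and WT livers from 0.61 to 0.54 and ended the call (edgeR adjusted p = 0.0562). Among all genes tested, 913 passed without this liver against 2664 with it.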

How the results depend on the processing

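The number of the 10 genes that passed in KO against WT livers on CDA-HFD was 2, against 5 with DESeq2, 6 with all 20 livers in 1 fit, 3 with RLE factors and with either other filter, and 1 to 8 with 1 liver left out. For the difference of the KO effect between diets it was 0, against 1 with DESeq2 and 0 to 2 with 1 liver left out. For diet in KO livers it was 1, against 3 by library size only (2 higher, 1 lower), 4 with DESeq2 (1 higher, 3 lower) and 1 to 2 with 1 liver left out. It stayed at 0 on WD, with or without each liver, and at 7 to 8 for diet in WT livers when 1 liver was left out. The cause was not tested. Library size only shifted the median of all genes by -0.19 (KO on CDA-HFD), -0.17 (interaction), 0.42 (diet in WT) and 0.25 (diet in KO).

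With the replicate number as a block (replicate block), 4 genes passed on CDA-HFD, 2 for diet in KO livers, 8 for diet in WT livers, 0 on WD and 0 for the interaction. Over all genes the numbers with the block were, in this order, 2459, 2044, 8343, 2 and 8. Without the block they were 2664, 2792, 8542, 12 and 99. Same-numbered livers did not deviate together throughout (r from -0.48 to 0.45). For number 4, however, r was positive in each comparison of 2 groups (0.39, 0.41, 0.32 and 0.45). Whether the numbers pair the livers is therefore not known. The block turned 2 values near 0 on WD, *Cyp8b1* to -0.052 and *Cyp27a1* to 0.00035.

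Other values that changed sign were, by library size only, *Cyp8b1* (-0.0098) and *Abcb4* (-0.0027) on WD, *Cyp7a1* in the interaction (-0.023), *Abcb4* for diet in WT livers (0.33), and *Cyp8b1* (0.19) and *Abcb11* (0.059) for diet in KO livers. Relative to the hepatocyte markers they were *Slco1b2* (-0.080) and *Abcb4* (-0.065) on WD, *Slco1b2* (-0.018) and *Abcb4* (-0.12) for KO on CDA-HFD, and *Abcb4* for diet in WT livers (0.42). With 1 liver left out, log2 fold changes on WD ran from -0.17 to 0.15 for *Cyp8b1*, -0.11 to 0.11 for *Slco1b2*, -0.021 to 0.063 for *Abcb4* and -0.082 to 0.078 for *Cyp27a1*. They ran from -0.29 to 0.66 for *Cyp7a1* in the interaction and from -0.29 to 0.26 for *Cyp8b1* for diet in KO livers. Over all genes, the number called on WD was 12, against 164 with DESeq2, 38 without a filter, 26 with all livers in 1 fit, 2 with the block and 1 to 33 (without WT liver 3) with 1 liver left out. On CDA-HFD it was 2664, against 4144 with DESeq2, 4170 with all livers in 1 fit, 1709 by library size only and 709 (without KO liver 1) to 7201 (without KO liver 5) with 1 liver left out. For the interaction it was 99, against 434 with DESeq2, 52 without a filter, 44 by library size only, 8 with the block, and with 1 liver left out 35 (without KO liver 3 on CDA-HFD) to 105, or 2138 without KO liver 5 on CDA-HFD. For diet in KO livers it was 2792, against 4476 with all livers in 1 fit, 3924 by library size only and 3658 with DESeq2. With 1 liver left out it ran from 1568 (without KO liver 2 on WD) to 2881.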
